A study of Mus musculus with 4 samples.

Results

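The 10 genes described here carry the last, hormone-controlled steps of calcium and magnesium recovery in the kidney and the local making and breakdown of active vitamin D: Calb1, S100g, Trpv5, Trpv6, Slc8a1, Trpm6, Pvalb, Vdr, Cyp27b1 and Cyp24a1. They were taken by symbol from a table of 54232 genes, and each symbol matched 1 row. They were followed in 4 RNA sequencing libraries of whole adult mouse kidney, 2 labelled wild type (WT) and 2 labelled heterozygous for Tshz3 (Tshz3+/LacZ, HET), all collected at 60 days of age. Per the labels, RNA of 3 kidneys per group was mixed in equal proportion, so a library is a pool and not an animal. Whether a genotype's pools came from separate kidneys is not stated, and the p-values then cover only the spread between these libraries. Pools of the same genotype differed in sex-linked genes, as given below, and how much of their spread is technical was not tested. No treatment is named, and the strain, the sex and the make-up of the LacZ allele are not stated in the labels.

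In the distal convoluted and connecting tubule, calcium enters the cell through the channels TRPV5 and TRPV6, crosses it bound to calbindins, and leaves through the sodium-calcium exchanger and calcium pumps. Magnesium enters the distal convoluted tubule through TRPM6. Calcitriol, the active form of vitamin D, acts through the vitamin D receptor and is known to raise the calbindins, the calcium channels and its own degrading enzyme. The kidney is the main source of circulating calcitriol, which the enzyme CYP27B1 makes and CYP24A1 breaks down.

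The libraries held between 62631750 and 70792042 reads, as recovered from the deposited values. The targeted gene did not bear out the labels: Tshz3 was at 0.653 and 0.723 scaled TPM in the WT pools and at 0.833 and 0.760 in the pools labelled HET, so directions below are those of the labels. TPM (transcripts per 1000000, corrected for gene length) was scaled between libraries. The kidney's defining markers were all present, from the podocyte gene Nphs1, at 10.3 to 15.8 scaled TPM, to the proximal transporter gene Slc34a1, at 2003 to 2692. HET-labelled replicate 1 stood apart from the other 3 libraries in its Y-linked genes: Ddx3y was at 4.02 scaled TPM there, against 16.2 to 21.1 in the others. Xist, the RNA of the silenced X, was at 18.1 and 39.7 scaled TPM in WT replicates 1 and 2, and at 60.5 and 57.7 in HET-labelled replicates 1 and 2. The same library also stood apart in most of the 10 genes, as the values below show, and the part of sex in those results was not tested.

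No gene of the 10 passed the test between genotypes. All 10 were tested, with limma on log2(scaled TPM + 0.5) and a Benjamini-Hochberg adjusted p below 0.1 over 22356 genes, and 0 were called, where 2 genes or 0.00895% of all tested were. At an unadjusted p under 0.05 the count was also 0, against 7.26% of all genes, and limma-voom called 0 as well. Without WT replicates 1 and 2 in turn 0 and 8 genes of the whole table were called, without HET-labelled replicates 1 and 2 in turn 50 and 65, and 1 of the 10, Calb1, in the last of these. Adjusted p ranged from 0.622 to 0.810. The median log2 fold change of the 10 genes was 0.42, with 7 above 0 and 3 below, where the median of all tested genes was 0.0067 and 51.1% were above 0. Without HET-labelled replicate 1 the median was -0.16 and 3 of the 10 were above 0. None of the 10 is among the 97 genes of the authors' deposited table, whose adjusted p reach 0.0997. With 2 libraries against 2, an exact permutation test of 1 gene cannot give a two-sided p below 0.333.

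For most of the 10 genes the wider split lay between the pools labelled HET. The exceptions were Slc8a1, Cyp27b1 and Cyp24a1. Their WT pools differed by 2.17, 2.696 and 3.71 times, against 1.71, 2.684 and 3.25 times between the HET-labelled pools. HET-labelled replicate 1 held the highest level of 8 of the 10 genes, where 25.4% of all tested genes were highest in that library. It lay above replicate 2 of the same genotype for 10 of 10, and the share of all tested genes that did so was not counted. In 5 of the 10, Calb1, S100g, Trpv5, Trpv6 and Slc8a1, its level was at least 1.5 times that of each other library, as for 1.94% of all tested genes. That multiple was chosen after the values were seen, and Trpm6 at 1.495 times and Cyp27b1 at 1.47 times fell just outside it. The median difference from the WT mean was 1.02 (log2) in HET-labelled replicate 1 and -0.16 in replicate 2, where the medians over all tested genes were 0.0057 and -0.0063. HET-labelled replicate 2 lay within the range of both WT pools for 5 genes, below it for 4 and above it for 1. Fewer cells of a type and less RNA per cell cannot be told apart in whole kidney.

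**Figure D1:**
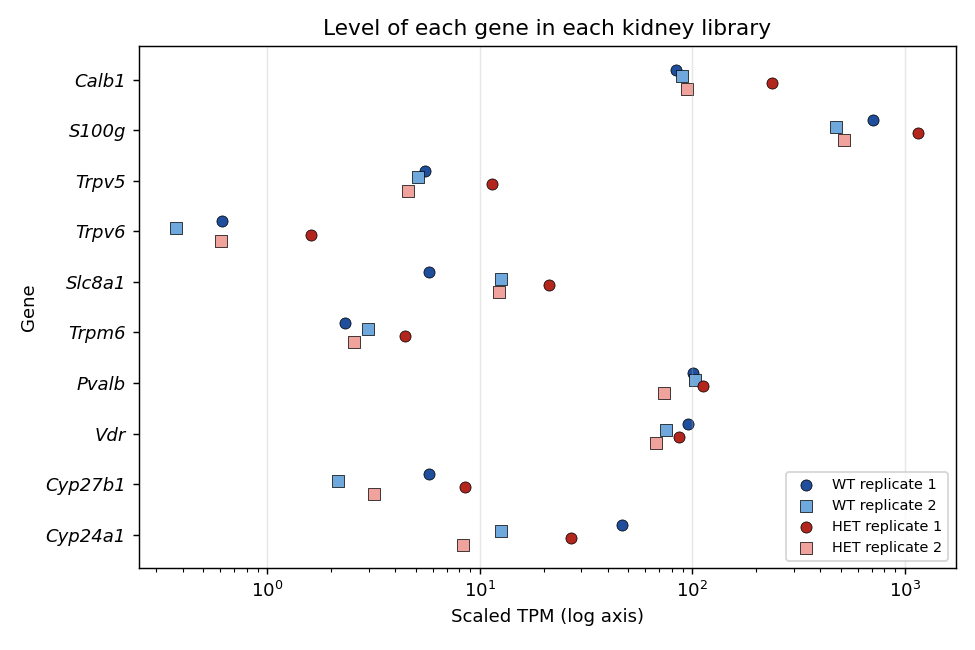
Scaled TPM (log axis) of each of the 10 genes, with 1 point per library: circles for replicate 1 and squares for replicate 2, blue for WT and red for the libraries labelled HET. The dark red circle of HET-labelled replicate 1 is farthest to the right in 8 rows, and both exceptions, Vdr and Cyp24a1, are highest in WT replicate 1.

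**Figure D2:**
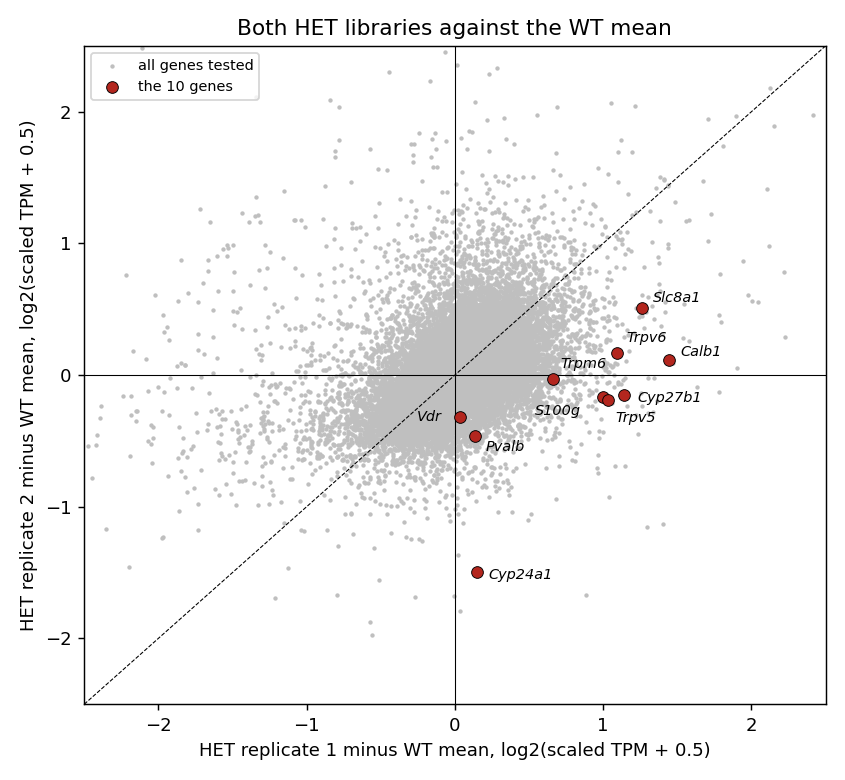
Difference from the WT mean on the log2(scaled TPM + 0.5) scale in HET-labelled replicate 1 (x axis) and replicate 2 (y axis), with all tested genes in grey, the 10 genes in red and a dashed line of equality. The axes end at 2.5 either way, which leaves 35 tested genes outside. All 10 genes lie below the dashed line, and 7 lie to the right of 0.6 on the x axis.

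The entry channels Trpv5 and Trpv6 were at low levels and were both highest in HET-labelled replicate 1. Trpv5 (ENSMUSG00000036899, chromosome 6, 41652173 to 41680769, mm10), the main apical calcium channel of the distal nephron, was at 5.54 and 5.15 scaled TPM in WT replicates 1 and 2. It was at 11.5 and 4.61 scaled TPM in HET-labelled replicates 1 and 2, from 523 to 1119 reads. One HET-labelled pool thus lay above both WT pools and the other below them. The WT mean was 5.34 ± 0.279 and the HET mean 8.03 ± 4.84 scaled TPM (SD, n = 2), which gave a log2 fold change of 0.42 ± 0.43 (SE; adjusted p = 0.728 by limma). Its direction turned without HET-labelled replicate 1, to -0.19.

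Trpv6 (ENSMUSG00000029868, chromosome 6, 41620624 to 41636405), a close relative that is best known as the calcium channel of the intestine, had the lowest level of the 10. It was at 0.610 and 0.371 scaled TPM in WT replicates 1 and 2, and at 1.602 and 0.603 in HET-labelled replicates 1 and 2. These values rest on 70, 47, 190 and 83 reads. HET-labelled replicate 2 fell between the WT pools, so the groups overlapped, and the log2 fold change was 0.63 ± 0.33 (SE; adjusted p = 0.622 by limma). At this level the scale matters: the log2 fold change was 0.92 with a pseudocount of 0.1 and 1.02 with limma-voom, and neither was called.

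Trpv6 and Trpv5 are neighbours on the same strand, 15767 bases apart with 0 annotated genes between them. Their ratio of TPM, which does not depend on scaling, was 9.09 and 13.9 (Trpv5 to Trpv6) in WT replicates 1 and 2, against 7.15 and 7.65 in HET-labelled replicates 1 and 2. Trpv5 was thus the more abundant transcript per length in every library.

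The promoter windows of both channels and of S100g are shown because these neighbours and partners were high in the same library. They run from 250 bases before to 50 bases after the RefSeq gene start (GRCm38.p6), 5′ to 3′ on the minus strand. Capitals mark the hexamers AGGTCA and GGTTCA, which form the repeats that vitamin D receptor dimers are known to bind, and the TATA box letters TATAAA, each on either strand.
Trpv5, chr6:41680674-41680973: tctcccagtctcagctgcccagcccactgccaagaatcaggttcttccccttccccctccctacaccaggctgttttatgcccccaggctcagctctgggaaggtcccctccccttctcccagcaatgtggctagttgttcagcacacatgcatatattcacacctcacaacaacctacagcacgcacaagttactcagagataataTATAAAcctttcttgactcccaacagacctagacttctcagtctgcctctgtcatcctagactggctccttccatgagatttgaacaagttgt
Trpv6, chr6:41636356-41636655: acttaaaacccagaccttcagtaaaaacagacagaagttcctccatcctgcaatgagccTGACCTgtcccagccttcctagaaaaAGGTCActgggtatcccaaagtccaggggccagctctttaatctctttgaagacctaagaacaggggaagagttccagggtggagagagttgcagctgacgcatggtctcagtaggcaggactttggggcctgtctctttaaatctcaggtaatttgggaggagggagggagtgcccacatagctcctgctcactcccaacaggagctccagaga
S100g, chrX:162964550-162964849: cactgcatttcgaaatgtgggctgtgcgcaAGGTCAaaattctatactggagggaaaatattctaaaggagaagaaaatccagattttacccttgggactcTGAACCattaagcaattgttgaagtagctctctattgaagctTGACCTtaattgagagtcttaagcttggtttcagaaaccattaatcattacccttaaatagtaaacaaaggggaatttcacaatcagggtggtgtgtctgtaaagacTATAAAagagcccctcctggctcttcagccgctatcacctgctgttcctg
AGGTCA stood in the Trpv6 window 191 (as TGACCT) and 165 bases before the start, counted from its first base, and in the S100g window 220 and, as TGACCT, 107 bases before it. GGTTCA stood once in the S100g window, as TGAACC, 149 bases before the start. TATAAA began 43 bases before the RefSeq start of Trpv5 and at the annotated start base itself in S100g. Of 32851 such windows, 16.3% hold AGGTCA, 10.4% GGTTCA and 13.6% TATAAA. Among the 9 windows available for the 10 genes, 2, 1 and 2 do, in the same order. The windows of Slc8a1, Trpm6, Pvalb, Vdr and Cyp27b1 hold none of these. Direct repeats with a spacer of 3 bases (NNN) between these hexamers, searched in 4 orders (AGGTCA or GGTTCA first, then either), were in 0 of the 9 windows of the 8 genes that the table holds, and in only 5 of all 32851 windows, so their absence here is what most windows show. Calb1 and Cyp24a1 have no entry in that table.

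The intracellular calcium carriers Calb1 and S100g were higher per length than the entry channels and the exchanger Slc8a1 in every library. Calb1 (ENSMUSG00000028222, chromosome 4, 15881264 to 15908064) encodes the calbindin that ferries calcium across distal tubule cells. It was at 83.8 and 89.7 scaled TPM in WT replicates 1 and 2, and at 237 and 94.1 in HET-labelled replicates 1 and 2, from 11848 to 34641 reads. Calb1 was the 1 gene of the 10 whose groups did not overlap, with both HET-labelled libraries above both WT libraries as for 21.8% of all tested genes. For 0 of the 10 both lay below, as for 23.1% of all. The count above was 4 without scaling of the TPM. It was 4 without WT replicate 1, 3 without WT replicate 2 and 8 without HET-labelled replicate 2. With a library left out fewer pools can overlap, so such counts can only stay or rise. The share of all tested genes under these settings was not counted, so the rises are not read as a result. HET-labelled replicate 1 was at 2.74 times the WT mean and replicate 2 at 1.08 times. The WT mean was 86.7 ± 4.14 and the HET mean 166 ± 101 scaled TPM (SD, n = 2), a log2 fold change of 0.78 ± 0.46 (SE; adjusted p = 0.629 by limma). Without HET-labelled replicate 2 Calb1 was called at 1.45 (limma adjusted p = 0.0955), with the lone HET-labelled pool assumed to vary like WT, and without HET-labelled replicate 1 it was at 0.12 (limma adjusted p = 0.863).

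S100g (ENSMUSG00000040808, X chromosome, 162961992 to 162964599) encodes the small vitamin D-dependent calbindin of the S100 family. It was at 707 and 472 scaled TPM in WT replicates 1 and 2, and at 1159 and 515 in HET-labelled replicates 1 and 2, the highest level of the 10 genes in every library. The WT pools already differed by a factor of 1.497, and HET-labelled replicate 2 lay between them. The log2 fold change was 0.42 ± 0.44 (SE; adjusted p = 0.731 by limma), and -0.17 without HET-labelled replicate 1. Ctps2 overlaps the gene on the other strand but shares 0 exon bases with it.

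The S100g to Calb1 ratio of TPM stood at 8.44 and 5.27 in WT replicates 1 and 2, against 4.88 and 5.48 in HET-labelled replicates 1 and 2. The Calb1 to Trpv5 ratio was 15.1 and 17.4 in WT and 20.7 and 20.4 in the HET-labelled libraries. Carrier and channel thus stood in nearly the same proportion in both HET-labelled pools, although replicate 1 was at 2.52 times replicate 2 for Calb1 and at 2.48 times for Trpv5.

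Slc8a1 (ENSMUSG00000054640, chromosome 17) encodes the sodium-calcium exchanger NCX1, which moves calcium out on the blood side. It was at 5.76 and 12.5 scaled TPM in WT replicates 1 and 2, and at 21.1 and 12.4 in HET-labelled replicates 1 and 2. WT replicate 1 stood low, WT replicate 2 and HET-labelled replicate 2 were nearly equal, and HET-labelled replicate 1 stood high. Its log2 fold change of 0.89 ± 0.46 (SE) was the largest of the 10 genes (limma adjusted p = 0.623), and it was 0.36 without WT replicate 1, 1.41 without WT replicate 2 and 0.51 without HET-labelled replicate 1. The deposited exons span 81388691 to 81649607, while GENCODE M21 places the gene at 81373105 to 81738377, so some annotated exons were not counted for it.

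For magnesium, Trpm6 was high in the same library, by less. Trpm6 (ENSMUSG00000024727, chromosome 19, 18749983 to 18892510), the apical magnesium channel of the distal convoluted tubule, was at 2.31 and 2.98 scaled TPM in WT replicates 1 and 2, and at 4.46 and 2.57 in HET-labelled replicates 1 and 2. HET-labelled replicate 1 was at 1.69 times the WT mean, and replicate 2 lay between the WT pools. The log2 fold change was 0.32 ± 0.27 (SE; adjusted p = 0.681 by limma), and -0.028 without HET-labelled replicate 1.

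Pvalb (ENSMUSG00000005716, chromosome 15, 78191114 to 78206400) encodes parvalbumin, a calcium buffer of the early distal convoluted tubule that is also abundant in fast skeletal muscle. It was at 101 and 103 scaled TPM in WT replicates 1 and 2, and at 112 and 73.9 in HET-labelled replicates 1 and 2. The WT pools were nearly equal and the HET-labelled pools lay on either side of them. The log2 fold change was -0.16 ± 0.22 (SE; adjusted p = 0.788 by limma), which was 0.090 without scaling of the TPM and 0.14 without HET-labelled replicate 2. Skeletal muscle genes were low beside it: 6 markers summed to between 2.29 and 4.76 scaled TPM per library, highest in HET-labelled replicate 1. The muscle creatine kinase gene Ckm was at 0 to 0.139 scaled TPM and the fast myosin light chain gene Mylpf at 1.45 to 1.94. The muscle actin gene Acta1 was at 0.223 and 0.627 scaled TPM in WT replicates 1 and 2, and at 3.05 and 0.875 in HET-labelled replicates 1 and 2. Relative to Slc12a3, the sodium-chloride cotransporter gene that defines the same segment, Pvalb was at 2.22 and 1.89 in WT replicates 1 and 2, against 1.35 and 1.06 in HET-labelled replicates 1 and 2, with no overlap. That ratio was chosen after the values were seen and has no test. Slc12a3 itself was at 45.6 and 54.3 scaled TPM in WT and at 83.1 and 69.8 in the HET-labelled libraries. Its log2 fold change of 0.61 was the largest of 15 distal tubule markers, so the ratio depends on this choice of reference gene.

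The vitamin D receptor was at like levels in the 4 pools. Vdr (ENSMUSG00000022479, chromosome 15, 97854425 to 97910630) was at 94.997 and 75.6 scaled TPM in WT replicates 1 and 2, and at 86.7 and 67.7 in HET-labelled replicates 1 and 2, from 13384 to 15656 reads. The groups overlapped, and HET-labelled replicate 2 was the lowest library. The log2 fold change was -0.14 ± 0.19 (SE), and limma's 95% confidence interval ran from -0.61 to 0.32 (adjusted p = 0.787). It was 0.11 without scaling of the TPM, a setting that moved the median of all tested genes from 0.0067 to 0.20.

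Both enzymes of calcitriol differed between pools of one genotype by more than between genotypes. Cyp27b1 (ENSMUSG00000006724, chromosome 10, 127048250 to 127053006), which makes calcitriol, was at 5.79 and 2.15 scaled TPM in WT replicates 1 and 2, and at 8.52 and 3.18 in HET-labelled replicates 1 and 2. Replicate 1 stood at 2.696 times replicate 2 in WT and at 2.68 times in the HET-labelled pools. The values rest on 178 to 661 reads, and the log2 fold change was 0.50 ± 0.67 (SE; adjusted p = 0.794 by limma), which turned to -0.13 without WT replicate 2 and -0.15 without HET-labelled replicate 1.

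Cyp24a1 (ENSMUSG00000038567, chromosome 2, 170482708 to 170497145), which breaks calcitriol down, was at 46.5 and 12.5 scaled TPM in WT replicates 1 and 2. It was at 27.0 and 8.30 scaled TPM in HET-labelled replicates 1 and 2. The order of the pools was the same as for Cyp27b1 within each genotype, with replicate 1 at 3.71 times replicate 2 in WT and at 3.25 times in the HET-labelled pools. A step of at least 2 times in that direction in both genotypes was found for 2 of the 10 genes, these 2, and for 0.228% of all tested genes, a multiple chosen after the values were seen. The log2 fold change was -0.67 ± 0.97 (SE; adjusted p = 0.810 by limma), and its 95% confidence interval ran from -3.59 to 2.25. It was 0.25 without WT replicate 1 and -1.596 without WT replicate 2. The gene shares 83 of its 3560 exon bases with Pfdn4 on the other strand, whose own level was 9.42 to 12.8 scaled TPM. The strand setting of the read counting is not stated, so reads in those bases cannot be told apart.

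**Figure D3:**
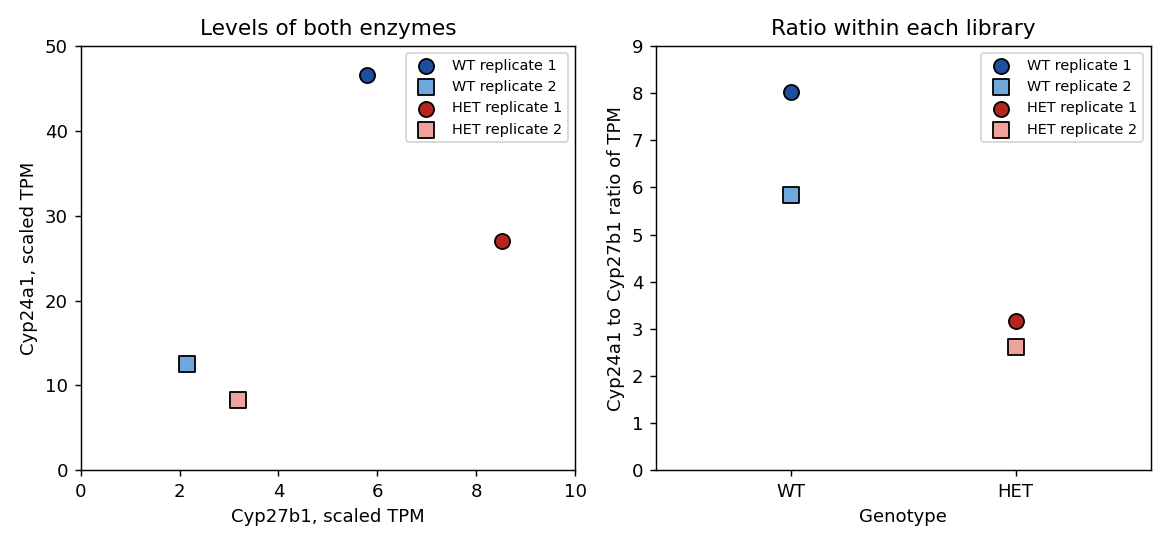
Left, Cyp24a1 against Cyp27b1 in scaled TPM, 1 point per library. Right, the Cyp24a1 to Cyp27b1 ratio of TPM in each library by genotype, with WT at 8.03 and 5.84 and the libraries labelled HET at 3.17 and 2.61.

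The ratio of the degrading to the making enzyme separated the genotypes where neither enzyme did. Cyp24a1 to Cyp27b1 stood at 8.03 and 5.84 in WT replicates 1 and 2, against 3.17 and 2.61 in HET-labelled replicates 1 and 2. Both HET-labelled pools lay below both WT pools. The means were 6.93 ± 1.55 and 2.89 ± 0.392 (SD, n = 2), and the difference of the log2 ratio, HET minus WT, was -1.25. It lay between -1.48 and -1.02 when each library was left out in turn. Its sign could not turn there, because the groups did not overlap. The ratio does not depend on scaling, but it was chosen after the values were seen and has no test beyond the smallest exact permutation p of 0.333 (two-sided). Of the other ratios taken here, Trpv5 to Trpv6, Calb1 to Trpv5 and Pvalb to Slc12a3 also separated the genotypes. S100g to Calb1, Slc8a1 to Calb1, Calb1 to Slc12a3 and Trpm6 to Slc12a3 overlapped. How often ratios of other gene pairs separate was not counted.

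**Figure D4:**
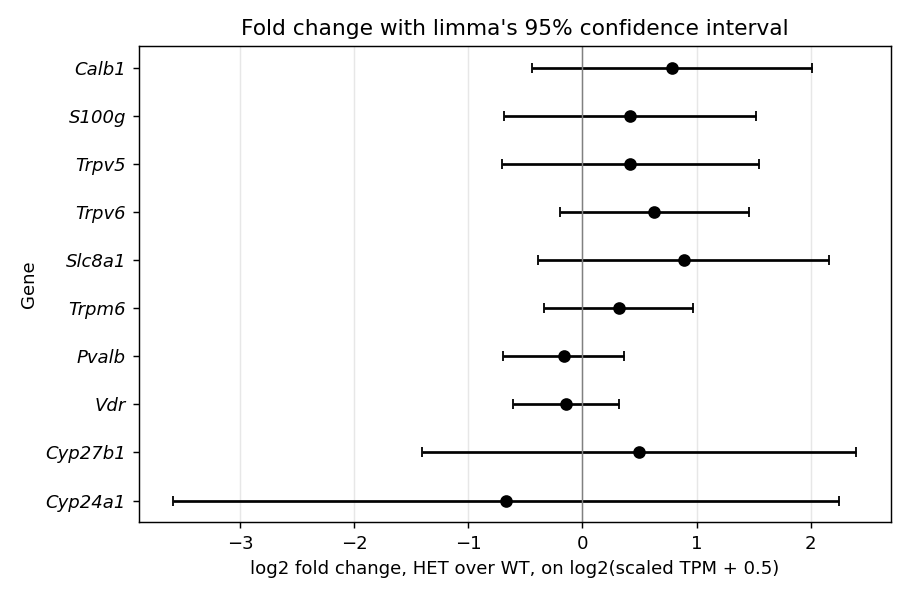
log2 fold change of each gene, HET over WT, on the log2(scaled TPM + 0.5) scale, with limma's 95% confidence interval as bars. Each of the 10 intervals crosses 0, and that of Cyp24a1 is the widest, from -3.59 to 2.25.

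Within WT, the levels per length ran from S100g (590 ± 166 scaled TPM, SD, n = 2) through Pvalb (102 ± 1.24), Calb1, Vdr (85.3 ± 13.7), Cyp24a1 (29.5 ± 24.0), Slc8a1 (9.14 ± 4.78), Trpv5, Cyp27b1 (3.97 ± 2.58) and Trpm6 (2.65 ± 0.475) to Trpv6 (0.490 ± 0.169). Neighbours whose WT pools overlapped were Calb1 and Vdr, Trpv5 and Cyp27b1, and Cyp27b1 and Trpm6. In the HET-labelled libraries Calb1 stood above Pvalb, though with overlapping pools, and Cyp24a1 (17.7 ± 13.2 scaled TPM) overlapped Slc8a1 (16.8 ± 6.21).

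Other genes of the same routes did not pass the test either, and their medians lay nearer 0. The lists are not separate: Pth1r and Kl are in both the calcium and the vitamin D list. Of 17 other calcium genes 16 were tested, all but the calretinin gene Calb2, and 0 were called, with 10 above and 6 below 0 and a median log2 fold change of 0.075. The calcium pump gene Atp2b4 was at 3.15 and 4.04 scaled TPM in WT replicates 1 and 2, and at 5.79 and 5.001 in HET-labelled replicates 1 and 2 (log2 fold change 0.53 ± 0.18 SE, limma adjusted p = 0.622), while the pump gene Atp2b1 had 0.14 ± 0.13. The calcium-sensing receptor gene Casr had the largest value of the list among genes of at least 1 scaled TPM, 0.55 ± 0.24. The parathyroid hormone receptor gene Pth1r, whose signal is known to raise Cyp27b1, had the smallest, -0.30 ± 0.20, with 562 and 473 scaled TPM in WT and 452 and 387 in the HET-labelled libraries. Klk1, whose product tissue kallikrein is known to act on TRPV5, had -0.23 ± 0.33.

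Of 18 other magnesium genes all were tested and 0 were called, with 11 above and 7 below 0 and a median of 0.018. The largest value of the list was 0.61 ± 0.17 (SE), for Slc12a3 (limma adjusted p = 0.622). Egf, whose product stimulates TRPM6, was at 176 and 197 scaled TPM in WT replicates 1 and 2, and at 285 and 191 in HET-labelled replicates 1 and 2, so it too was highest in HET-labelled replicate 1. Of 17 other vitamin D genes 16 were tested, without the hydroxylase gene Cyp2r1, and 0 were called, with 7 above and 9 below 0 and a median of -0.022. They ran from Pth1r to Lrp2, the gene of the receptor megalin that takes up filtered vitamin D with its carrier protein, at 0.35 ± 0.18. Rxra, the partner receptor of VDR, had -0.16 ± 0.14, and Kl, the gene of klotho, which FGF23 needs to lower Cyp27b1, had -0.039 ± 0.16.

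Markers of the distal tubule were highest in the same pool, and their part in the results was not tested. Of these markers Slc12a3, Egf, Cnnm2 and Kcnj10 are also in the magnesium list, and Klk1 and Wnk4 in the calcium list. All 15 of 15 distal tubule markers were highest in HET-labelled replicate 1, where 25.4% of all tested genes were. Their median difference from the WT mean was 0.47 (log2) in that library and -0.061 in HET-labelled replicate 2, and none was called. Their levels summed to 1256 and 1327 scaled TPM in WT replicates 1 and 2 and to 1705 and 1030 in HET-labelled replicates 1 and 2. Klk1 alone gave 641, 666, 776 and 402 of these, in the same order, and the other 14 markers summed to 615, 660, 929 and 628, so HET-labelled replicate 2 was lowest with Klk1 and between the WT pools without it. Relative to the distal marker Slc12a3, Calb1 was still highest in that pool, at 2.86, against 1.84 and 1.65 in WT replicates 1 and 2 and 1.35 in HET-labelled replicate 2. Trpm6 relative to Slc12a3 was at 0.0507 and 0.0549 in WT and at 0.0537 and 0.0368 in HET-labelled replicates 1 and 2. The 11 proximal tubule markers, of the segment where Cyp27b1 is made, had medians of 0.022 and -0.24 in HET-labelled replicates 1 and 2.

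**Figure D5:**
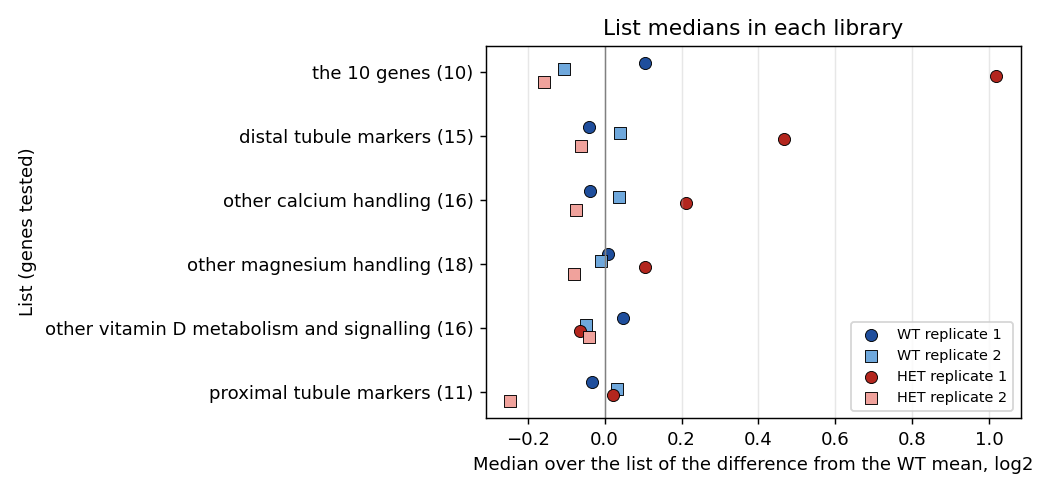
Median over each list of the difference from the WT mean on the log2(scaled TPM + 0.5) scale, 1 point per library, with the number of genes tested in brackets. Some genes are in more than 1 list. HET-labelled replicate 1 is at 1.02 for the 10 genes, 0.47 for distal tubule markers, 0.21 and 0.11 for other calcium and magnesium genes, -0.063 for other vitamin D genes and 0.022 for proximal tubule markers.

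Cells from outside the tubule were also looked for. Macrophages, in which Cyp27b1 is also known to be made, were followed by 9 markers, a list chosen with earlier results of these data known. Of these 9 markers, 8 had a log2 fold change above 0, and Csf1r had -0.051. By limma 0 of the 9 were called at the adjusted p of 0.1. Their median log2 fold change was 0.61, where that of all tested genes was 0.0067. At an unadjusted p under 0.05, 7 of the 9 were higher in HET, as were 3.81% of all tested genes, and for 7 both HET-labelled libraries lay above both WT libraries, as for 21.8% of all. Their levels summed to 129 and 150 scaled TPM in WT and 214 and 211 in HET-labelled replicates 1 and 2. The authors' deposited table lists 2 of them as higher in HET, the lysozyme gene Lyz2 (log2 fold change 0.86, adjusted p = 0.000691) and Adgre1, the gene of the macrophage marker F4/80 (0.69, adjusted p = 0.0961). Between HET-labelled replicates 1 and 2 the markers went both ways: Lyz2 was at 77.5 and 84.0 scaled TPM there, and the chemokine receptor gene Cx3cr1 at 3.88 and 2.36. The part of macrophages in the Cyp27b1 values was not tested. The 5 adrenal cortex markers summed to between 2.28 and 2.88 scaled TPM. The 4 fat markers, Ucp1, Cidea, Adipoq and Plin1, summed to between 63.4 and 117, lowest in HET-labelled replicate 1. The fat markers went both ways: Ucp1 and Cidea were lowest in HET-labelled replicate 2, and Adipoq and Plin1 were highest there. Ucp1 was at 17.7 and 34.7 scaled TPM in WT replicates 1 and 2, and at 11.1 and 8.70 in HET-labelled replicates 1 and 2. The authors' deposited table lists it as lower in HET (log2 fold change -0.94).

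The gene with the widest spread over the 4 libraries was Cyp24a1. Among 9641 genes of at least 5 scaled TPM, those with the nearest profile were A2m, Ethe1, Mir7041, Mir1199 and Ppard, at a Euclidean distance between centred log2 profiles of 0.938 to 0.995 over 4 libraries. Reads of the 2 microRNA genes cannot be told from those of the genes that overlap them, Lrig1 for Mir7041 and 2210011C24Rik for Mir1199. A profile this far away is only a loose match. Calb1, added after its values were seen, had much nearer ones: Havcr1, H2-DMb1, Mir5107 (which overlaps Cd74), Pigr and Clu, at 0.261 to 0.331. Many genes share the main feature of its profile. In 433 of 22356 tested genes HET-labelled replicate 1 was at least 1.5 times each other library. Whether the near genes have anything else in common with Calb1 was not tested. Havcr1, the gene of the kidney injury molecule, was at 17.1 and 22.8 scaled TPM in WT replicates 1 and 2, and at 58.2 and 24.1 in HET-labelled replicates 1 and 2. Clu, the clusterin gene, was at 72.9 in each WT pool and at 185 and 60.0 in the HET-labelled pools.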

How the data were processed

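Poly(A) RNA of adult mouse kidney was sequenced in 4 libraries of pooled RNA, 2 per genotype. The authors deposited TPM per gene from alignments marked unique to mm10, per the file headers. Their second table holds, per the file headers, a mean normalized count (a signal never below 0), log2 fold changes with standard errors, a score (the test statistic), p-values and adjusted p-values for 97 genes. DESeq, DESeq2 and edgeR are named in the submitters' processing notes, with no versions. Which aligner and read counter were used is not stated there.

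The product of TPM and exon length gave whole reads for 100% of values above 0, within 0.001 reads. These reads served for depth, filtering, limma-voom and trimmed mean of M values (TMM) scaling, with factors on TPM of 0.859 and 0.975 for WT and 1.06 and 1.13 for HET replicates 1 and 2. Genes needed 10 reads at median depth in 2 libraries and 15 in all. The test was limma 3.58.1 (R 4.3.3, statmod 1.5.0) on log2(scaled TPM + 0.5) with trend and robust moderation, a scale that understates changes of low genes. The fit was tested on simulated data. Left-out libraries kept the same genes and factors.

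The 10 genes and all lists were chosen with earlier results of these data known. All 10 are named. From other lists, the rule named a few by role and the largest and smallest fold change of at least 1 TPM in 2 libraries, and for the gene of widest spread the 5 nearest profiles. Gene models came from GENCODE M21 and promoters from RefSeq (GRCm38.p6), which holds 8 of the 10. Counting intervals were not used, and precision rests on the spread between pools.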

Additional observations from a re-analysis of the deposited data

How the results depend on the processing

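Across 15 alternative settings, 130 of 150 fold changes of the 10 genes kept direction and stayed uncalled, 19 reversed and 1 became called. The number of genes called over the whole table was 0 without a filter on low values, with limma-voom, with the replicate block and with Xist level as a covariate, 1 without robust moderation, 5 with a minimum of 1 read per 1000000 in 2 libraries and 32 with Y-linked level as a covariate. Leaving out 1 library gave 0 (WT replicate 1), 8 (WT replicate 2), 50 (HET replicate 1) or 65 genes (HET replicate 2), and 0 or 1 of the 10, Calb1 without HET replicate 2. The replicate block called 0 of the 10. At an unadjusted limma p under 0.05 it gave 3 of them, and 1766 of all 22356 tested genes. Differences between the pools of each genotype correlated at 0.12 across genes, and the labels give the numbers no meaning.

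With Y-linked level as a covariate the log2 fold change reversed for S100g (-0.049), Trpv5 (-0.14) and Trpm6 (-0.048). With Xist level it reversed for Slc8a1 (-0.23), Trpm6 (-0.036), Vdr (0.16) and Cyp24a1 (1.09), and without scaling for Pvalb (0.090) and Vdr (0.11). With 1 library left out it ranged from -0.17 to 1.00 for S100g, -0.19 to 1.03 for Trpv5, -0.028 to 0.66 for Trpm6, -0.46 to 0.14 for Pvalb, -0.32 to 0.033 for Vdr (0.019 without WT replicate 1), -0.15 to 1.14 for Cyp27b1 (-0.13 without WT replicate 2) and -1.596 to 0.25 for Cyp24a1 (0.15 without HET replicate 2). Calb1, Trpv6 and Slc8a1 stayed above 0 with each library left out. The count of genes with both HET libraries above both WT libraries was 4 without scaling and 1 to 8 with a library left out, settings chosen after seeing the data. Apart from fewer samples or genes, the cause was not tested. Trpv6, at 47 to 190 reads, is the gene where depth limits most.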

Other observations

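Claudin genes of the thick ascending limb, where calcium and magnesium pass between cells, gave further values. Cldn14, whose product is known to block that passage, was at 0.837 and 0.190 scaled TPM in WT replicates 1 and 2, and at 1.39 and 0.188 in HET-labelled replicates 1 and 2, from 52, 13, 89 and 14 reads. Replicate 1 was thus the higher pool in each genotype, as for Cyp27b1 and Cyp24a1. Cldn16 and Cldn19, whose products form the channel itself, were highest in HET-labelled replicate 1, at 20.3 and 31.1 scaled TPM. In the other libraries they ranged from 11.8 to 14.9 (Cldn16) and from 21.3 to 24.7 (Cldn19). None of the 3 was called by limma (adjusted p = 0.895, 0.849 and 0.770).

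The potassium channel gene Kcna1, which is known to support magnesium entry, was at 0.201, 0.333 and 0.287 scaled TPM in WT replicate 1 and HET-labelled replicates 1 and 2. WT replicate 2 stood apart at 1.01 scaled TPM, from 156 reads.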
